A study of Mus musculus with 20 samples.

Results

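The genes described here are 10 chromatin regulators, most of which are recurrently mutated in human follicular lymphoma or belong to the same complexes: Ezh2, Ezh1, Eed, Suz12, Kdm6a, Kdm6b, Kmt2d, Crebbp, Ep300 and Arid1a. They were chosen by name, and each mapped to a single Ensembl identifier of a table of 37620 mouse genes. All 10 passed the filter on low counts, and the lowest count of any of them in any sample was 199. Messenger RNA came from B220+ cells, enriched with magnetic beads for the CD45R form found on B cells, of mice with a C57BL/6 background. The first group was VavPBcl2/Myc lymphoma (Myc lymphomas, n = 8), the second was VavPBcl2/vector lymphoma, the same model with an empty vector (vector lymphomas, n = 8), and the third was normal spleen (normal B cells, n = 4). Both lymphoma groups carry VavPBcl2, a transgene in which Vav regulatory sequence drives the apoptosis inhibitor Bcl2 across blood cells, and the normal spleens do not. The labels do not say whether the samples of a group are from different animals, and p-values here measure only how far these samples spread.

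Histone tails carry marks that these enzymes write and erase. Polycomb repressive complex 2 (PRC2) methylates lysine 27 of histone H3 at silent genes, while KMT2D, CREBBP and EP300 place methyl and acetyl groups at enhancers, and ARID1A belongs to a complex that slides nucleosomes. Germinal centre B cells are known for high EZH2, and human follicular lymphoma for gain of function in EZH2 and loss of KMT2D and CREBBP.

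The promoters of Ezh2, Ezh1 and Kdm6a are shown because Ezh2 and its paralog moved apart in the Myc lymphomas and because Kdm6a is the only X-linked regulator among the 10. Each run covers 250 bases before the transcription start and the first 30 transcribed bases, 5′ to 3′ on the gene's strand, from RefSeq on GRCm38.p6. Capitals mark CACGTG, the E-box that Myc can bind, or TTTCCCGC and TTTGGCGC, a pair of sequences of the E2F type, each searched on both strands. Ezh2 lies at chr6:47595001-47595280 on the minus strand, Ezh1 at chr11:101226434-101226713 on the minus strand and Kdm6a at chrX:18162325-18162604 on the plus strand.
Ezh2: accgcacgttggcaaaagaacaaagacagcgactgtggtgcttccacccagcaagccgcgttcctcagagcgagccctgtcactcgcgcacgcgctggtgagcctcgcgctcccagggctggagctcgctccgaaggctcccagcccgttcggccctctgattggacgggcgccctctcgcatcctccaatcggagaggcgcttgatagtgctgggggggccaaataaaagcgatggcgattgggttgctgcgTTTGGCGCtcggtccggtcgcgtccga
Ezh1: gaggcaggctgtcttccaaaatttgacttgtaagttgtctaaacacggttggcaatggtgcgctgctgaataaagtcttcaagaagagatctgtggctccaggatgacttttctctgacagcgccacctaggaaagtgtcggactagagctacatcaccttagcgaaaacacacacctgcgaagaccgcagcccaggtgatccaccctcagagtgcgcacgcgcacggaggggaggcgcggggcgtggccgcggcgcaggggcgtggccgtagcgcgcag
Kdm6a: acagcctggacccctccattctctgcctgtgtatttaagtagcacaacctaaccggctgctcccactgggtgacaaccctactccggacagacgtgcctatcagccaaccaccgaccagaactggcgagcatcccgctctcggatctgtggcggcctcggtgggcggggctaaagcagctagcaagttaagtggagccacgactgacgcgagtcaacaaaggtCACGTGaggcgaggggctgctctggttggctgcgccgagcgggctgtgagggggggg

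Among 10 RefSeq promoters of 9 of the regulators (Arid1a has a pair, Kdm6b was not matched), 4 held a match in this window. TTTGGCGC began at position +4 of Ezh2, just after the start, and this sequence occurs in 0.51% of all 32851 mouse promoters of the same length. TTTCCCGC began at position -219 of Suz12 and at position -55 of the downstream start of Arid1a, against 1.07% of all promoters. CACGTG began at position -27 of Kdm6a, against 7.15% of all promoters. The Ezh1, Eed, Kmt2d, Crebbp and Ep300 windows and the upstream Arid1a start held none of the 3 sequences. CpG counts in the 300-base windows were 31 for Ezh2, 23 for Ezh1 and 49 for Crebbp, against a median of 7 over all promoters.

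Gene counts ranged from 28.7 to 56.3 M per sample (M for 1e6). The labels give sequencing run numbers but no dates, and runs were ordered within each instrument. This order places all 8 Myc lymphomas, vector replicates 7 and 8 and normal replicates 2 to 4 in earlier runs. Vector replicates 1 to 6 and normal replicate 1 fall in later runs, so run and group overlap. The earlier-run vector lymphomas also carry a title prefix of their own, which cannot be told apart from the run. Gene length also moved with the run sets and the groups. For genes with up to 1 kb of exon, each sample's median deviation from the gene means was taken in log2 units. It was -0.793 in normal replicate 1 of the later runs and 0.126 to 0.235 in the earlier-run normal replicates. In vector lymphomas it was -0.793 to -0.364 in the later runs, and 0.515 and 0.28 in replicates 7 and 8. Myc lymphomas, all in earlier runs, were at -0.151 to 1.669. In Myc against vector lymphomas the median log2 fold change was 0.94 for genes with up to 1 kb of exon and -0.39 for genes over 10 kb, a class that holds Kmt2d, Ep300, Crebbp and Arid1a (19931, 14273, 13540 and 11476 bp of exon). Myc replicate 5 stood furthest apart, with a median deviation of -1.64 log2 units for genes over 10 kb, and it was the lowest Myc lymphoma for 9 of the 10 regulators (all but Eed). Summed over 6 B cell markers, levels were 1482 to 5065 CPM (counts per 1e6 gene counts, after TMM scaling) in Myc lymphomas, 4225 to 7341 CPM in vector lymphomas and 5279 to 6115 CPM in normal B cells. Summed over 6 neutrophil markers, they were 1586 to 16410 CPM in Myc lymphomas, 52.3 to 5661 CPM in vector lymphomas and 75.6 to 890 CPM in normal B cells, with no marker at 0 in any group. Against vector lymphomas, 4 of 6 neutrophil, 4 of 5 NK and cytotoxic and 4 of 5 plasmacytoid dendritic cell markers rose in Myc lymphomas, the fifth of the last list fell, and 5 of 6 B cell markers fell. The part of these cells in the regulators' values was not tested. In these bulk samples, fewer cells of a type and less RNA per cell cannot be told apart.

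**Figure D1:**
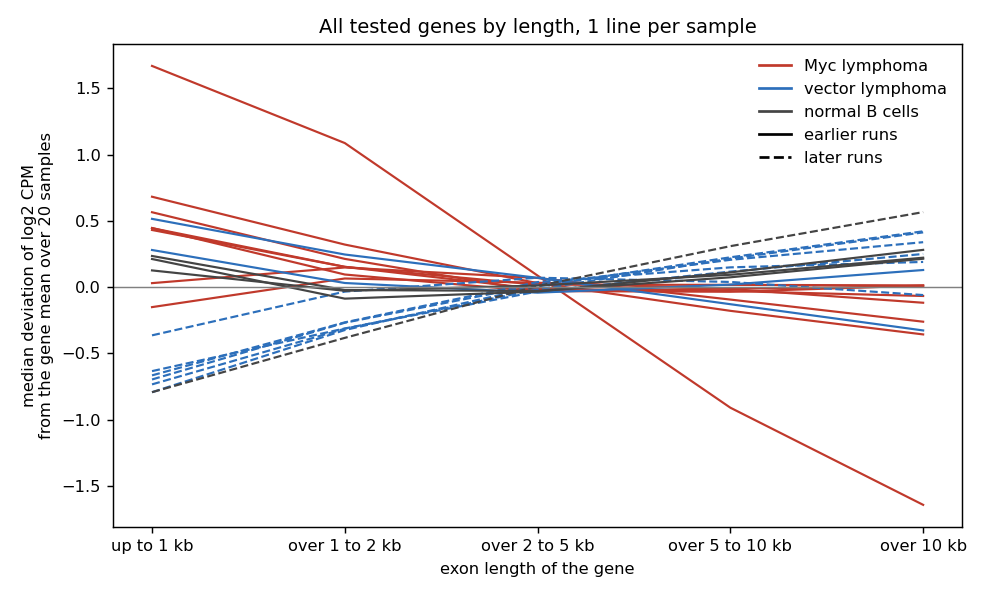
Median deviation of log2 CPM from each gene's mean over the 20 samples (vertical axis, log2 units) by exon length class (horizontal axis, kb), with 1 line per sample coloured by group and dashed for later runs. Myc replicate 5 falls to -1.64 at over 10 kb, while the normal samples lie between 0.21 and 0.57 there.

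The model gene differed as labelled. Myc was at 313 to 1646 CPM in Myc lymphomas (median 909), 48.4 to 226 CPM in vector lymphomas (median 101) and 229, 218, 179 and 343 CPM in normal B cells. Bcl2 was at 75.6 to 213 CPM in Myc lymphomas, 99.1 to 154 CPM in vector lymphomas and 122, 116, 138 and 129 CPM in normal B cells, so its groups overlapped. These counts do not separate transgene from endogenous transcripts.

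Myc and vector lymphomas differ by added Myc, and 6 of the 8 vector lymphomas differ from all Myc lymphomas also by run set. Between these groups 5 of the 10 regulators fell and 0 rose (edgeR's quasi-likelihood test over 17824 genes, Benjamini-Hochberg adjusted p under 0.05). Over all genes tested, 21.9% fell and 26.6% rose in this comparison. The regulators that fell were Ezh1, Crebbp, Ep300, Kdm6b and Arid1a. Their groups overlapped in every case, as 0 of 10 regulators separated the samples completely, against 11.5% of all genes. Over the 10 regulators the median log2 fold change was -0.72, and over all genes it was 0.09. The regulators' median was nearer 0 with the length offset (-0.37), in the earlier runs (-0.18) and with the run set as a term (-0.205). With the length offset, which removes each sample's trend over exon length, 5 fell and 1 rose, where 49.4% of all genes were called. In the earlier runs alone (8 Myc and 2 vector lymphomas) 0 of 10 regulators passed, where 7.37% of all genes did, and 0 had an unadjusted p under 0.05 (edgeR). With the run set as a term in the fit 0 of 10 passed, against 19% of all genes, and 2, Ezh1 and Kdm6b, had an unadjusted p under 0.05. No Myc lymphoma was in the later runs, and what goes with the run and what goes with Myc cannot be told apart for the other 6 vector lymphomas.

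Between vector lymphomas and normal B cells, 0 of 10 regulators passed the test with edgeR, and 0 with DESeq2. At an unadjusted p under 0.05, both tools gave 2, namely Ezh2 and Kdm6a. Of all genes, 7.46% rose and 3.36% fell. Kdm6a was the only regulator whose groups did not overlap, 1 of 10, against 13.2% of all genes. The median log2 fold change was -0.08 over the regulators and -0.03 over all genes, and over the regulators it was 0.02 with the length offset, -0.32 in the earlier runs and -0.24 with the run term. With the length offset 1 of 10 passed, Ezh2, against 13.7% of all genes, and with the run term 0 passed (edgeR, 1 at an unadjusted p under 0.05), against 6.87%. In earlier-run samples alone (2 vector lymphomas and 3 normal samples) 0 of 10 passed with edgeR, against 0.665% of all genes, and 0 had an unadjusted p under 0.05.

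Between Myc lymphomas and normal B cells, 1 regulator rose, Ezh2, and 6 fell, namely Ezh1, Crebbp, Ep300, Kdm6a, Kdm6b and Arid1a. Of all genes, 21.5% rose and 17.9% fell. Groups did not overlap for 6 of the 10 (Ezh1, Kmt2d, Ep300, Kdm6a, Kdm6b and Arid1a), against 27.4% of all genes. The median log2 fold change was -0.95 over the regulators and 0.08 over all genes, and over the regulators it was -0.43 with the length offset. That offset left 4 of the 10 called, near the 41.3% of all genes, and with the run term 3 were, against 36.9%. The count of 7 depended on single libraries: it was 2 without normal replicate 1, 4 without normal replicate 3, 3 without normal replicate 4 and 4 without Myc replicate 7. Among earlier-run samples (8 Myc lymphomas and 3 normal samples) 1 of 10 passed, Ezh2, against 20.6% of all genes. The 3 comparisons share samples, so they are not independent of each other.

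**Figure D2:**
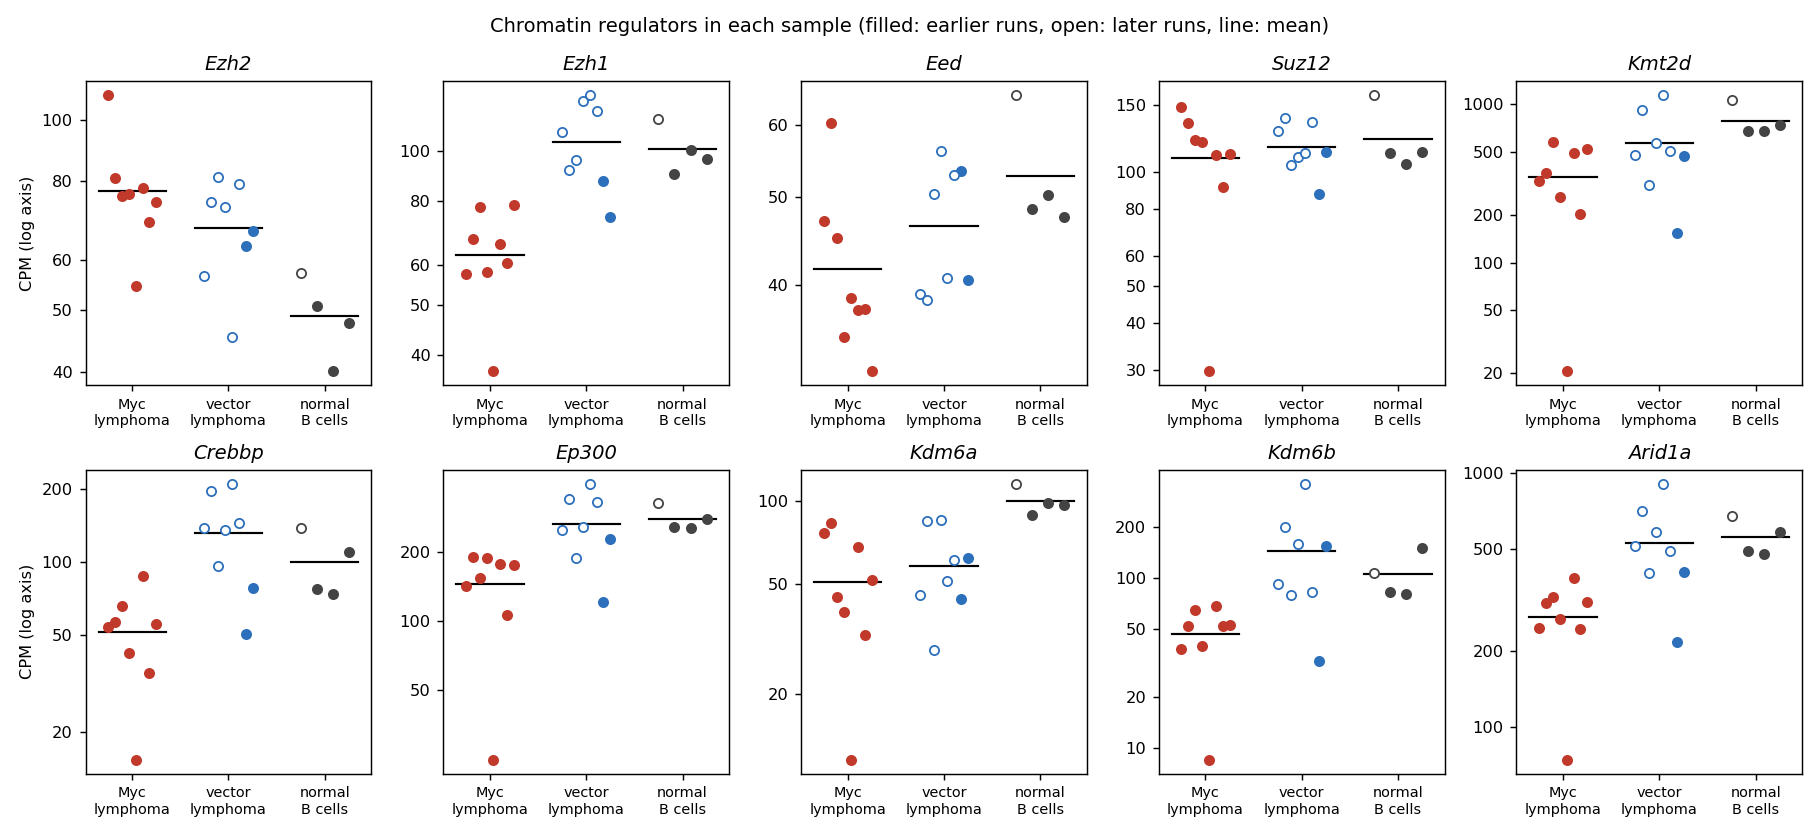
CPM of each regulator (vertical axis, log scale) in the 8 Myc lymphomas, 8 vector lymphomas and 4 normal samples, with 1 point per sample, filled for earlier and open for later runs, and the group mean as a line. The 8 Myc lymphomas lie below the 4 normal samples for Ezh1, between 37.2 and 78.3 CPM against 90.4 to 116 CPM, and mostly above them for Ezh2.

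Ezh2, the catalytic subunit of PRC2 that predominates in dividing cells, was at 54.7 to 109 CPM in Myc lymphomas (median 76.1), 45.4 to 81.2 CPM in vector lymphomas (median 69.8) and 57.3, 50.7, 40.1 and 47.8 CPM in normal B cells. Of the Myc lymphomas only replicate 5 lay within the normal range. Ezh2 rose 1.58-fold in Myc lymphomas against normal B cells (log2 fold change 0.66 ± 0.18, SE; adjusted p = 0.0071). That call was kept without any single library of these groups, with log2 fold changes from 0.57 to 0.78, and it held in the earlier runs alone (0.78, adjusted p = 0.027), but it was lost when libraries were scaled by their totals only (0.49, adjusted p = 0.077). Vector lymphomas lay between the other groups, at a log2 fold change of 0.46 ± 0.18 against normal B cells (adjusted p = 0.11), which passed with gene length as an offset (0.51, adjusted p = 0.037) and with only these groups in the fit (0.47, adjusted p = 0.049). Myc and vector lymphomas differed by a log2 fold change of 0.20 ± 0.14 (adjusted p = 0.26), and by 0.43 ± 0.13 (adjusted p = 0.0092) with the length offset.

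Ezh1, the paralog of Ezh2 that is expressed also in resting cells and has weaker methyltransferase activity, was at 37.2 to 78.3 CPM in Myc lymphomas (median 63.1), 74.5 to 129 CPM in vector lymphomas (median 103) and 116, 90.4, 100 and 96.4 CPM in normal B cells. Myc lymphomas lay below all normal samples and overlapped vector lymphomas only through vector replicate 8, an earlier-run sample. Ezh1 fell by 0.73 ± 0.15 on the log2 scale in Myc against vector lymphomas (adjusted p = 0.00056) and by 0.68 ± 0.18 in Myc lymphomas against normal B cells (adjusted p = 0.0054). Among vector lymphomas the earlier-run replicates 7 and 8, at 87.5 and 74.5 CPM, lay below all 6 later-run samples at 91.7 to 129 CPM. In the earlier runs alone the log2 fold change was -0.35 ± 0.25 (adjusted p = 0.43) against vector lymphomas and -0.58 ± 0.21 (adjusted p = 0.065) against normal B cells. With the length offset the decrease passed in both comparisons (-0.47, adjusted p = 0.00098, against vector lymphomas; -0.37, adjusted p = 0.022, against normal B cells).

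The Ezh2 to Ezh1 balance within a sample cancels library size, and these genes have similar exon lengths of 6678 and 7440 bp. Their log2 difference, Ezh2 minus Ezh1, was -0.08 to 0.93 in Myc lymphomas (median 0.25), -1.50 to -0.16 in vector lymphomas (median -0.53) and -1.01, -0.83, -1.32 and -1.01 in normal B cells. Every Myc lymphoma lay above every vector lymphoma and every normal sample. Of single genes, 11.5% separated Myc from vector lymphomas completely, and 27.4% separated Myc lymphomas from normal B cells. The share of gene pairs that do so was not computed, and this balance was not tested. The median ratio of counts was 1.19 in Myc lymphomas, 0.691 in vector lymphomas and 0.496 in normal B cells. Restricted to earlier runs, the ratio was 0.948 to 1.90 in the 8 Myc lymphomas, 0.721 and 0.897 in the vector lymphomas and 0.400 to 0.561 in the 3 normal samples, and these ranges did not overlap.

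Eed, which reads the trimethyl mark and stimulates the enzyme, was at 32.2 to 60.4 CPM in Myc lymphomas (median 38.2), 38.6 to 56.3 CPM in vector lymphomas (median 45.6) and 64.8, 48.6, 50.4 and 47.5 CPM in normal B cells. Its largest difference was a log2 fold change of -0.34 ± 0.17 in Myc lymphomas against normal B cells (adjusted p = 0.11), and it passed in none of the 3 comparisons. That difference did pass when libraries were scaled by their totals only (-0.52, adjusted p = 0.042) and without Myc replicate 2 (-0.43, adjusted p = 0.03). Suz12, the scaffold that holds PRC2 together, was at 29.8 to 149 CPM in Myc lymphomas (median 116), 87.6 to 139 CPM in vector lymphomas (median 112) and 160, 112, 105 and 113 CPM in normal B cells. Its log2 fold change was -0.10 ± 0.21 in Myc against vector lymphomas (adjusted p = 0.73), -0.08 ± 0.26 in vector lymphomas against normal B cells (adjusted p = 0.89) and -0.17 ± 0.26 in Myc lymphomas against normal B cells (adjusted p = 0.62). Relative to Eed in the same sample, Ezh2 stood at 0.42 to 1.21 log2 units in Myc lymphomas, 0.15 to 0.94 units in vector lymphomas and -0.33 to 0.06 units in normal B cells, so all 16 lymphomas lay above all 4 normal samples. Relative to Suz12 it stood at -0.74 to 0.88 units in Myc lymphomas and -1.30 to -0.36 units in vector lymphomas. Normal B cells were at -1.48 to -1.14 units there, which overlapped vector lymphomas but not Myc lymphomas. Of single genes, 13.2% separated vector lymphomas from normal B cells completely, and 27.4% separated Myc lymphomas from normal B cells. The share of gene pairs that do so was not computed, and these differences within a sample were not tested. Eed and Suz12 have shorter exon lengths than Ezh2 (3828 and 4945 bp against 6678 bp), so shifts with length need not cancel in these differences.

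**Figure D3:**
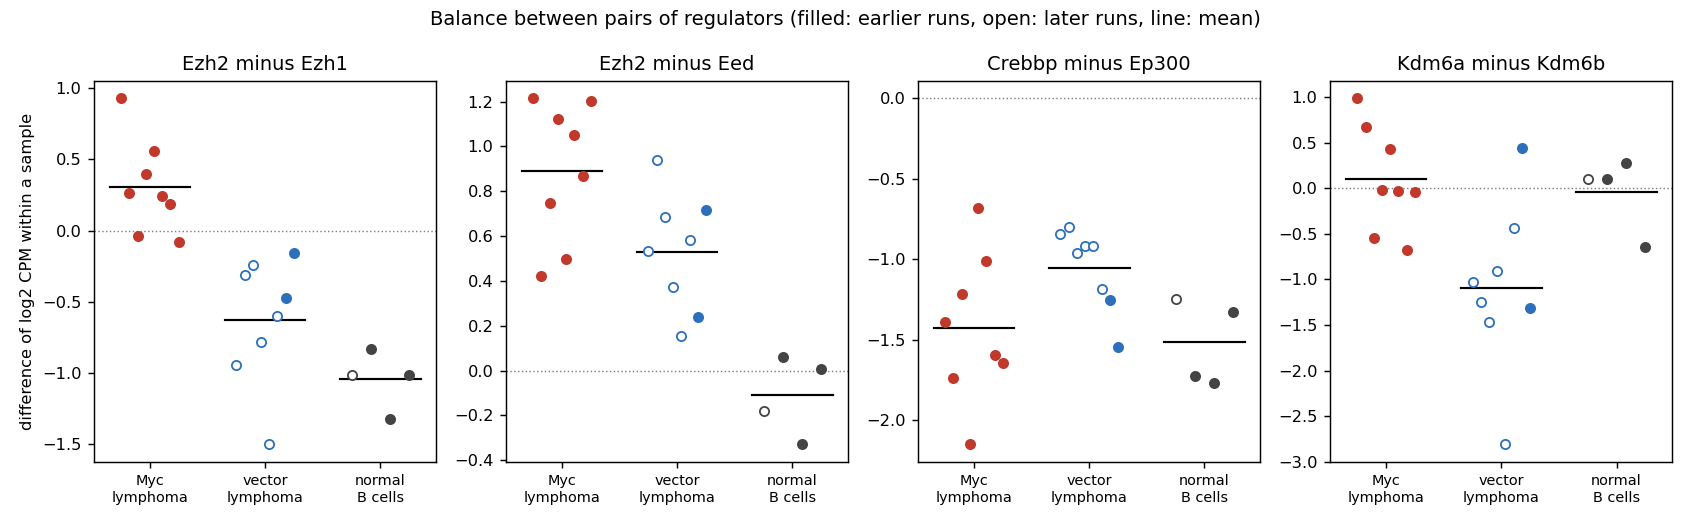
Difference of log2 CPM between pairs of regulators within each sample (vertical axis, log2 units) in Myc lymphomas, vector lymphomas and normal B cells, with 1 point per sample, filled for earlier and open for later runs, and the mean as a line. For Ezh2 minus Ezh1 the Myc lymphomas span -0.08 to 0.93 and do not overlap the other groups.

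Kdm6a and Kdm6b remove the methyl groups that PRC2 adds to lysine 27. Kdm6a, which is X-linked and escapes X inactivation, was at 11.5 to 83.3 CPM in Myc lymphomas (median 48.2), 28.9 to 85.03 CPM in vector lymphomas (median 56.2) and 115, 88.95, 97.8 and 96.5 CPM in normal B cells. All 16 lymphomas were below all 4 normal samples. The log2 fold change was -0.97 ± 0.34 in Myc lymphomas against normal B cells (adjusted p = 0.029), -0.79 ± 0.34 in vector lymphomas against normal B cells (adjusted p = 0.16) and -0.18 ± 0.29 in Myc against vector lymphomas (adjusted p = 0.62). The call against normal B cells was lost without normal replicate 1, 3 or 4, with adjusted p up to 0.098, and in the earlier runs alone (-0.85, adjusted p = 0.14). Vector lymphomas against normal B cells passed with only these groups in the fit (-0.77, adjusted p = 0.036).

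Sex-linked transcripts moved with Kdm6a. Ddx3y, a Y-linked RNA helicase gene, was at most 0.09 CPM in the 4 normal samples, while it was over 2 CPM in 5 of 8 Myc lymphomas and 6 of 8 vector lymphomas. Among samples at or under 2 CPM of Ddx3y, Kdm6a was at 67.8 to 83.3 CPM in 3 Myc lymphomas, 84.7 and 85.03 CPM in 2 vector lymphomas and 88.95 to 115 CPM in the 4 normal samples. Among samples over 2 CPM of Ddx3y it was at 11.5 to 51.6 CPM in 5 Myc lymphomas and 28.9 to 62.1 CPM in 6 vector lymphomas, with no normal sample for comparison. The 9 samples with little or no Ddx3y were thus the 9 with the most Kdm6a, and they had 522 to 1417 CPM of Xist, the RNA that coats the inactive X, against 2.16 to 174 CPM in the other 11. Uty, the Y-linked relative of Kdm6a, was at 0.00 to 16.1 CPM in Myc lymphomas, 0.02 to 19.9 CPM in vector lymphomas and at most 0.02 CPM in normal B cells. The labels give no sex, and the part of the Kdm6a difference that goes with sex-linked expression was not tested.

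**Figure D4:**
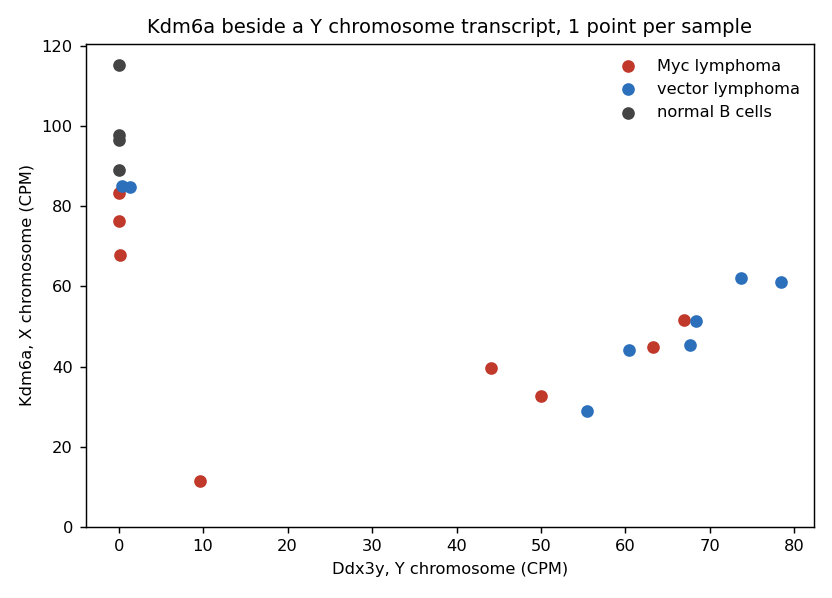
Kdm6a (vertical axis, CPM) against the Y-linked Ddx3y (horizontal axis, CPM), with 1 point per sample coloured by group. The 9 samples at or under 2 CPM of Ddx3y lie at 67.8 to 115 CPM of Kdm6a, and the 11 others at 11.5 to 62.1 CPM.

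Kdm6b, the stimulus-inducible demethylase, was at 8.56 to 69.1 CPM in Myc lymphomas (median 52.3), 32.4 to 360 CPM in vector lymphomas (median 124) and 108, 82.9, 80.7 and 151 CPM in normal B cells. Myc lymphomas were below all normal samples and overlapped vector lymphomas only through vector replicate 7, an earlier-run sample. Kdm6b fell 3.07-fold in Myc against vector lymphomas (log2 fold change -1.62 ± 0.39, adjusted p = 0.0023), and this kept its call without any single library (-1.77 to -1.28). In Myc lymphomas against normal B cells the log2 fold change was -1.16 ± 0.46 (adjusted p = 0.049), and that call was lost in 11 of 12 fits that left out a library, every one except that without Myc replicate 6. Vector lymphomas and normal B cells differed by 0.46 ± 0.48 (adjusted p = 0.6). The length offset kept the call of Myc against vector lymphomas (-1.39, adjusted p = 0.002) and lost that against normal B cells (-0.93, adjusted p = 0.063). Restricted to earlier runs, the log2 fold change against vector lymphomas was -0.98 ± 0.55 (adjusted p = 0.32). Kdm6b shares 286 bp of exon with the antisense gene Kdm6bos, and no source used here states whether reads were counted by strand.

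Kmt2d, the enhancer H3K4 methyltransferase, had the widest spread of the 10 on the log2 scale in Myc lymphomas. It was at 20.6 to 574 CPM in Myc lymphomas (median 348), 153 to 1147 CPM in vector lymphomas (median 494) and 1059, 680, 679 and 741 CPM in normal B cells. All 8 Myc lymphomas were below all 4 normal samples, while the vector lymphomas reached below and above them. It passed in no comparison: the log2 fold change was -1.19 ± 0.51 in Myc lymphomas against normal B cells (adjusted p = 0.068), -0.72 ± 0.43 in Myc against vector lymphomas (adjusted p = 0.18) and -0.47 ± 0.52 in vector lymphomas against normal B cells (adjusted p = 0.62). Without Myc replicate 5, the first of these passed (-0.99 ± 0.37, adjusted p = 0.039). With the length offset it was -0.62 (adjusted p = 0.16).

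Crebbp, an acetyltransferase that marks enhancers at lysine 27, was at 15.4 to 87.3 CPM in Myc lymphomas (median 54.8), 50.5 to 210 CPM in vector lymphomas (median 137) and 138, 77.4, 74.2 and 110 CPM in normal B cells. Crebbp fell 2.54-fold in Myc against vector lymphomas (log2 fold change -1.35 ± 0.30, adjusted p = 0.0011), and with the length offset by 0.93 ± 0.18 (adjusted p = 0.00026). Vector replicates 7 and 8, the earlier-run samples, were at 50.5 and 78.2 CPM, below the 95.9 to 210 CPM of the later-run samples and within the range of Myc lymphomas. In the earlier runs alone the log2 fold change was -0.31 ± 0.43 (adjusted p = 0.72). Against normal B cells Crebbp fell by 0.95 ± 0.35 in Myc lymphomas (adjusted p = 0.036), a call lost with the length offset (-0.42, adjusted p = 0.12) and without normal replicate 1 or 4 or Myc replicate 4 or 7, with adjusted p up to 0.17.

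Ep300, the paralog of Crebbp, was at 24.7 to 189 CPM in Myc lymphomas (median 164), 120 to 397 CPM in vector lymphomas (median 251) and 327, 256, 253 and 277 CPM in normal B cells. It fell by 0.87 ± 0.29 on the log2 scale in Myc against vector lymphomas (adjusted p = 0.019) and by 0.95 ± 0.35 in Myc lymphomas against normal B cells (adjusted p = 0.035). The decrease against vector lymphomas passed also with the length offset (-0.47, adjusted p = 0.021), and that against normal B cells did not (-0.43, adjusted p = 0.081). The call against normal B cells was also lost without any of the 4 normal replicates or Myc replicate 7, with adjusted p up to 0.12. In the earlier runs alone the log2 fold change was -0.26 ± 0.50 against vector lymphomas (adjusted p = 0.8) and -0.82 ± 0.42 against normal B cells (adjusted p = 0.16). Crebbp minus Ep300 within a sample was -2.15 to -0.68 log2 units in Myc lymphomas, -1.54 to -0.80 units in vector lymphomas and -1.77 to -1.25 units in normal B cells, overlapping in all groups.

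Arid1a, the DNA-binding subunit of the canonical SWI/SNF (BAF) remodeller, was at 74.6 to 385 CPM in Myc lymphomas (median 288), 216 to 907 CPM in vector lymphomas (median 505) and 679, 492, 479 and 588 CPM in normal B cells. Myc lymphomas were below all normal samples. Arid1a fell 1.96-fold in Myc against vector lymphomas (log2 fold change -0.97 ± 0.27, adjusted p = 0.0065) and 2.07-fold in Myc lymphomas against normal B cells (-1.05 ± 0.32, adjusted p = 0.014). Both calls held with the length offset (-0.60, adjusted p = 0.0049, and -0.60, adjusted p = 0.019). In the earlier runs alone the log2 fold change was -0.19 ± 0.43 against vector lymphomas (adjusted p = 0.83) and -0.91 ± 0.35 against normal B cells (adjusted p = 0.079), and without normal replicate 1 the comparison with normal B cells gave -0.91 (adjusted p = 0.066).

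**Figure D5:**
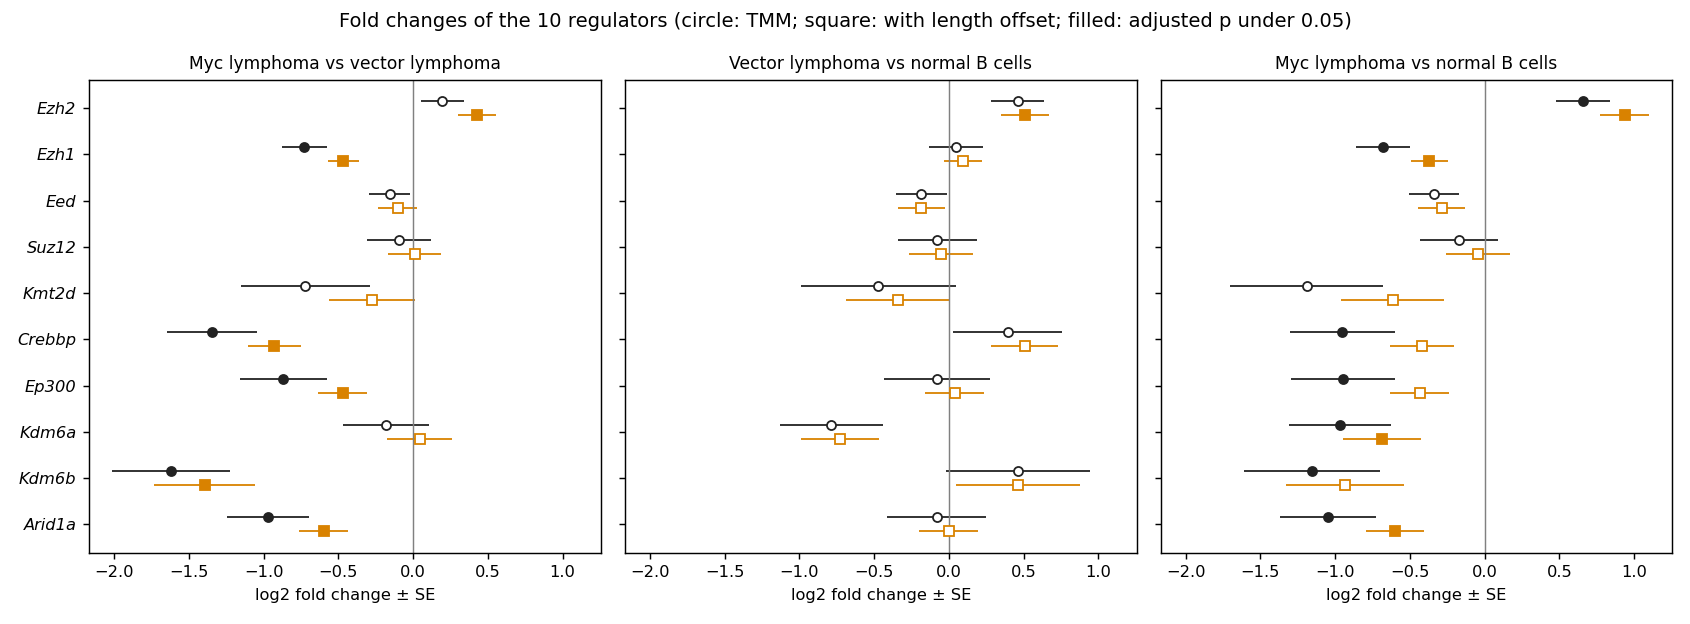
Log2 fold changes with SE (horizontal axis) of the 10 regulators (rows) in Myc against vector lymphomas, vector lymphomas against normal B cells and Myc lymphomas against normal B cells, as circles for the TMM scaling and squares with a gene length offset, filled where the adjusted p is under 0.05. Ezh2 is at 0.66 in Myc lymphomas against normal B cells, and Kdm6b at -1.62 in Myc against vector lymphomas.

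Per kb of exon, Arid1a had the highest mean level in each group, at 23.6 ± 8.0 CPM per kb in Myc lymphomas, 46.1 ± 18.3 in vector lymphomas and 48.8 ± 8.1 in normal B cells (SD, n = 8, 8 and 4). In Myc lymphomas Suz12 (22.0) and Kmt2d (17.4) came next, within the spread of Arid1a. Ezh2 was the fourth of 10 in Myc lymphomas (11.6 ± 2.3 CPM per kb), the eighth in vector lymphomas (10.1 ± 1.8) and the last in normal B cells (7.34 ± 1.07), where Crebbp (7.37 ± 2.21) lay next to it within the spread. The genes above Ezh2 in vector but not Myc lymphomas were Kdm6b (20.9 in vector and 6.81 in Myc lymphomas), Ep300 (18.4 and 10.1), Ezh1 (13.99 and 8.44) and Eed (12.15 and 10.9). Dividing by exon length leaves each sample's shift with length in place, and its part in these ranks was not tested. Crebbp was the last in Myc lymphomas, at 3.81 ± 1.58 CPM per kb. Kdm6a was the last in vector lymphomas, at 6.90 ± 2.35 CPM per kb.

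The genes whose log2 CPM followed a regulator most closely over the 20 samples were, for Ezh2, Dbf4 (Pearson r = 0.909), Top2a (0.901) and Ncapg (0.862). For Ezh1 they were Atp10d (0.976), Zfp180 (0.971) and Fam160b2 (0.962). For Kmt2d they were Srrm2 (0.994), Lrp6 (0.987) and Setd1b (0.984), and for Crebbp Golga3 (0.979), Tsc1 (0.970) and Lmtk2 (0.968). These are descriptions over samples that share groups, runs and length-dependent shifts. Dbf4 activates the kinase that fires replication origins, Top2a untangles replicated DNA and Ncapg is a condensin subunit.

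For the related gene lists, the background in Myc against vector lymphomas was 21.9% of all genes lower and 26.6% higher. Myc lymphomas against normal B cells gave 17.9% lower and 21.5% higher. Vector lymphomas against normal B cells gave 3.36% lower and 7.46% higher. In the earlier runs, calls in either direction were 7.37% in the first of these comparisons, 20.6% in the second and 0.665% in the third. In that order they were 49.4%, 41.3% and 13.7% with the length offset, and 19%, 36.9% and 6.87% with the run term. Of 8 other PRC2 subunits, 3 fell and 0 rose in Myc against vector lymphomas, and 3 fell and 1 rose with the length offset. Phf19, a Polycomb-like subunit that recruits PRC2, fell by 2.23 ± 0.19 on the log2 scale to a mean of 12.4 CPM in Myc lymphomas, against 58.1 CPM in vector lymphomas (adjusted p = 3.5e-08). Phf1, its relative, fell by 2.43 ± 0.21 to 33.0 CPM, against 178 CPM (adjusted p = 3.6e-08). In vector lymphomas against normal B cells, 1 of the 8 rose, Phf19, by 2.00 ± 0.25 (58.1 CPM in vector lymphomas and 14.6 CPM in normal B cells, adjusted p = 4.9e-05). Against normal B cells 3 fell in Myc lymphomas, with Phf1 at -2.11 ± 0.24 (adjusted p = 2.3e-06) and Jarid2, which modulates PRC2, at -0.94 ± 0.29 (adjusted p = 0.015). Within the earlier runs 2 fell in Myc against vector lymphomas and 1 in Myc lymphomas against normal B cells, and Phf19 still rose in vector lymphomas against normal B cells (1.76, adjusted p = 0.034). The median log2 fold change of the 8 was -0.48 in Myc against vector lymphomas, 0.29 in vector lymphomas against normal B cells and -0.42 in Myc lymphomas against normal B cells. It was -0.10 in the earlier runs and -0.21 with the length offset in Myc against vector lymphomas, 0.05 in the earlier runs in vector lymphomas against normal B cells, and -0.16 with the length offset in Myc lymphomas against normal B cells.

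Of 19 subunits of PRC1, the complex that binds the PRC2 mark and ubiquitinates histone H2A, 9 fell and 0 rose in Myc against vector lymphomas (median log2 fold change -0.49). Adding the length offset gave 6 lower and 2 higher (median -0.22). Among those that fell was Cbx8, a chromodomain reader of the mark (-1.33 ± 0.16, adjusted p = 2.3e-06). Set against normal B cells, Myc lymphomas had 9 lower and 1 higher, led by Cbx8 (-1.02 ± 0.19, adjusted p = 0.00038) and Cbx7 (-1.08 ± 0.25, adjusted p = 0.002). In vector lymphomas against normal B cells 0 of 19 passed with edgeR (3 at an unadjusted p under 0.05) and 1 with DESeq2. Among earlier-run samples 1 fell in Myc against vector lymphomas, and 3 fell and 1 rose in Myc lymphomas against normal B cells.

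Around Kmt2d, 4 of 13 other genes of H3K4 methyltransferase complexes, enzymes and their partner subunits, fell and 2 rose in Myc against vector lymphomas (median -0.35). This median was 0.20 in the earlier runs, 0.06 with the run term and -0.09 with the length offset, where 4 fell and 3 rose. Dpy30 (1.27 ± 0.25, adjusted p = 0.00034) and Ash2l (0.45 ± 0.10, adjusted p = 0.0015), core subunits shared by these complexes, rose. Against normal B cells 5 fell and 2 rose in Myc lymphomas, including Ash2l (0.58 ± 0.13, adjusted p = 0.0017) and the catalytic Kmt2a (-1.39 ± 0.41, adjusted p = 0.011), and in vector lymphomas 0 of 13 passed with edgeR (0 at an unadjusted p under 0.05) and 0 with DESeq2. Of 4 H3K4 demethylases, 2 fell in Myc against vector lymphomas, namely Kdm5b (-0.82 ± 0.26, adjusted p = 0.014) and Kdm5c (-0.64 ± 0.26, adjusted p = 0.049). Kdm5b was, in the earlier runs, at -0.07 (adjusted p = 0.94) and Kdm5c at 0.21 (adjusted p = 0.81). Kdm5b alone fell in Myc lymphomas against normal B cells (-1.07 ± 0.31, adjusted p = 0.01), and 0 of 4 passed in vector lymphomas against normal B cells (0 at an unadjusted p under 0.05, and 0 with DESeq2). With the length offset 0 of 4 passed in either comparison of Myc lymphomas (edgeR, 2 at an unadjusted p under 0.05 in each). Within the earlier runs 0 of the 13 (1 at an unadjusted p under 0.05) and 0 of the 4 (0 unadjusted) passed in Myc against vector lymphomas with edgeR, and in Myc lymphomas against normal B cells 1 of the 13 rose, Ash2l, and 0 of the 4 passed (1 at an unadjusted p under 0.05).

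Around Crebbp and Ep300, 4 of 7 other acetyltransferases fell and 1 rose in Myc against vector lymphomas. Kat2a, the SAGA acetyltransferase, rose by 0.69 ± 0.11 (adjusted p = 4.7e-05), and Kat6a, of the MOZ complex, fell by 1.30 ± 0.34 (adjusted p = 0.0037). Against normal B cells 2 fell in Myc lymphomas, Kat2b (-0.84 ± 0.24, adjusted p = 0.0095) and Kat6a (-1.33 ± 0.40, adjusted p = 0.011), and 1 rose, while 0 of 7 passed in vector lymphomas (edgeR, 0 at an unadjusted p under 0.05, and 0 with DESeq2). Of 11 deacetylase and corepressor genes, which counter these enzymes, 5 fell in Myc against vector lymphomas. They include Bcl6, the germinal centre repressor, at 44.1 CPM in Myc lymphomas and 212 CPM in vector lymphomas (-2.27 ± 0.26, adjusted p = 1.2e-06), and its corepressor Bcor (-1.06 ± 0.23, adjusted p = 0.00096). Bcl6 was also 1 of 4 that fell in Myc lymphomas against normal B cells (-1.25 ± 0.30, adjusted p = 0.0027), with Tbl1xr1 (-0.80 ± 0.24, adjusted p = 0.013), and the only gene of the 11 that rose in vector lymphomas against normal B cells (1.02 ± 0.32, adjusted p = 0.045). That rise of Bcl6 did not pass in the earlier runs (0.98, adjusted p = 0.64) or with the run term (0.95, adjusted p = 0.13). The median of the 7 acetyltransferases was -0.47 and that of the 11 corepressor genes -0.49 in Myc against vector lymphomas. Within the earlier runs 1 of the 7 rose (median -0.17) and 1 of the 11 fell (median -0.11) in that comparison. In Myc lymphomas against normal B cells 0 of the 7 passed there with edgeR (3 at an unadjusted p under 0.05), and 1 of the 11 fell, Bcl6.

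Around Arid1a, 7 of 21 other SWI/SNF subunits fell and 1 rose in Myc against vector lymphomas, with a median log2 fold change of -0.24. Phf10, a subunit of the PBAF form, rose by 1.03 ± 0.15 (adjusted p = 1.3e-05), and Bcl7a, itself mutated in B cell lymphoma, fell by 0.99 ± 0.17 (adjusted p = 8.9e-05). Myc lymphomas had 7 lower and 2 higher against normal B cells, where 17.9% of all genes fell and 21.5% rose. The smallest p-values were those of Phf10 (0.88 ± 0.18, adjusted p = 0.0011) and Smarcd2 (-0.57 ± 0.15, adjusted p = 0.0051). In vector lymphomas against normal B cells 0 of 21 passed with edgeR (1 at an unadjusted p under 0.05) and 1 with DESeq2. With the length offset the median in Myc against vector lymphomas was 0.08, with 6 lower and 5 higher, 11 of 21 where 49.4% of all genes were called, and within the earlier runs it was -0.02, with 0 of 21 called by edgeR and 2 at an unadjusted p under 0.05. In Myc lymphomas against normal B cells the median was -0.18, against 0.16 with the length offset (4 higher and 3 lower) and -0.11 in the earlier runs, where Phf10 alone was called.

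Of 12 genes reported elsewhere as targets of EZH2, CREBBP or KMT2D, 8 fell and 2 rose in Myc against vector lymphomas (median -1.45). Cd40, a B cell costimulatory receptor, was at 15.2 CPM in Myc lymphomas and 69.8 CPM in vector lymphomas (-2.20 ± 0.23, adjusted p = 2.9e-07). Ciita, the activator of MHC class II genes, was at 145 CPM in Myc lymphomas and 638 CPM in vector lymphomas (-2.14 ± 0.24, adjusted p = 6.8e-07). Against normal B cells 4 fell and 3 rose in Myc lymphomas, led by Cdkn2a, a cell cycle inhibitor locus silenced by PRC2 (3.97 ± 0.43, adjusted p = 1.7e-06), and Cd40 (-2.31 ± 0.26, adjusted p = 2.1e-06). Mean Cdkn2a was low, at 7.06 CPM in Myc lymphomas, 2.28 CPM in vector lymphomas and 0.447 CPM in normal B cells. Its lowest count in a normal sample was 12, so its fold changes against normal B cells rest on few reads there. In vector lymphomas against normal B cells 3 rose, including Cdkn2a (2.34 ± 0.40, adjusted p = 0.00069) and Prdm1, the plasma cell regulator (1.91 ± 0.49, adjusted p = 0.015), and Cdkn2a alone passed there in the earlier runs (2.60, adjusted p = 0.033). In the earlier runs alone 4 of the 12 fell in Myc against vector lymphomas (median -1.32), and 2 fell and 2 rose in Myc lymphomas against normal B cells. The B cell marker list moved beside them, as 5 of its 6 genes fell in Myc against vector lymphomas and 4 in Myc lymphomas against normal B cells, and its part in these values was not tested.

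Of 10 proliferation genes, 7 rose in Myc against vector lymphomas (median 0.52), 9 in vector lymphomas against normal B cells (0.88) and 10 in Myc lymphomas against normal B cells (1.40). Cdk1, the mitotic kinase, was at 101 CPM in Myc lymphomas, 37.8 CPM in vector lymphomas and 17.0 CPM in normal B cells. Ccnb1, its cyclin, was at 56.5 CPM in Myc lymphomas, 22.7 CPM in vector lymphomas and 8.28 CPM in normal B cells. Mean Ezh2 had the same order, at 77.3 CPM in Myc lymphomas, 67.4 CPM in vector lymphomas and 49.0 CPM in normal B cells. Its difference between Myc and vector lymphomas was not called (edgeR, adjusted p = 0.26), and a link between Ezh2 and proliferation was not tested. Within the earlier runs 0 of 10 proliferation genes passed in Myc against vector lymphomas with edgeR (8 at an unadjusted p under 0.05, median 0.86), and 10 rose in Myc lymphomas against normal B cells (1.41). Vector lymphomas against normal B cells gave 0 of 10 there with edgeR (3 at an unadjusted p under 0.05, median 0.69), and 4 rose with the run term.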

How the data were processed

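RNA was sequenced from 20 samples of B220+ mouse cells on the Ion Proton platform after poly-A selection, RNase III fragmentation and 16 PCR cycles, per the labels' protocols. The deposited values are raw counts per Ensembl gene, 1 column per sample; of tools and builds, the submitters' processing notes give HTSeq, Picard 1.119, BWA 0.7.5a, NCBIM37 and mm9 without saying what each did. Reads assigned to no gene (37.1 to 57.0% of reads were counted to genes) stayed out of library sizes. From the counts, 17824 of 37620 genes passed filterByExpr by group. After TMM scaling, 1 model of all 3 groups was fitted with edgeR 4.0.16, and contrasts were tested by its two-sided quasi-likelihood F test. P-values were Benjamini-Hochberg adjusted over all tested genes and called under 0.05. CPM use TMM-scaled library sizes, log2 CPM a prior count of 2, and errors of fold changes are SE. The common coefficient of biological variation was 0.465. DESeq2 1.42.0 was an alternative.

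Exon lengths, gene names and overlaps came from GENCODE vM21 (GRCm38), and promoters from RefSeq, matched by symbol; no coordinate of the count table was used. A length offset (each sample's trend of log2 CPM over exon length) was added after seeing that long genes moved together. The regulators, gene lists and tests were chosen with earlier results of these data known. The named genes are all 10 regulators, the 2 called genes with the smallest p of each list and comparison, and the 3 genes with the highest correlation to Ezh2, Ezh1, Kmt2d and Crebbp. A gene that this rule names is not reported here. Replicates were compared pairwise: 0 of 62 pairs within groups had identical counts, and the lowest chi-square per degree of freedom was 52.4. The fits were tested on simulated data. No column was left out.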

Additional observations from a re-analysis of the deposited data

Results flagged for a closer look

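Within each group, the highest and lowest sample of each of the 10 regulators were compared with the others by Dixon's test. Of 30 tests, 1 per regulator and group, 4 passed its 95% critical value, where chance passes about 1 in 20 if tests are independent. These tests share samples and are not independent, as normal replicate 1 was the highest normal sample for 9 of the 10 regulators. In normal replicate 1, the only normal sample of the later runs, Eed was at 64.8 CPM, against 50.4 CPM in the nearest normal sample. Suz12 was at 160 CPM there, against 113 CPM, and Kmt2d at 1059 CPM, against 741 CPM. In Myc replicate 5, Arid1a was at 74.6 CPM, against 243 CPM in the nearest Myc lymphoma.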

How the results depend on the processing

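No paired analysis was possible because the replicate numbers were given in accession order and pair no samples. In Myc against vector lymphomas the count of 5 regulators was kept with DESeq2, RLE size factors, library totals, no filter, these groups alone and each of 16 left-out libraries (5 to 5). It was 0 in the earlier runs, 0 with a run term, and 0 in both with the length offset. Genes called there numbered 8654, against 1363 in earlier runs and 3382 with the run term (1988 and 3978 with the offset), and 7866 to 8873 with a library left out. In vector lymphomas against normal B cells the count of 0 was 2 with these groups alone, 1 with the length offset and 0 to 0 with a library left out. Genes called were 1928, against 3503 with these groups alone, 1225 with the run term, 123 in earlier runs (181 with the offset) and 1089 to 2139 with a library left out (1207, 1089 and 1118 without normal replicate 1, 3 and 4). In Myc lymphomas against normal B cells the count of 7 was 3 with the run term, 1 in earlier runs, 4 with the length offset (where 41.3% of all genes were called), 2 and 3 with the offset and earlier runs or run term, and 2 to 7 with a library left out. Genes called were 7025, against 3820 in earlier runs (4528 with the offset). Scaling by library totals moved the median log2 fold change of all genes from -0.03 to -0.18 in vector lymphomas against normal B cells and from 0.08 to -0.11 in Myc lymphomas against normal B cells, and the share of higher calls from 68.9 to 54.4% and from 54.5 to 42.9%.

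Sign changes, none of them in a called value, were as follows. In Myc against vector lymphomas, Suz12 was at 0.18 with the run term, 0.13 (earlier runs), 0.0101 (offset), 0.13 and 0.19 (offset with earlier runs or run term), and -0.17 to 0.0505 with a library left out. Kmt2d was at 0.0283 (run term), 0.15 (earlier runs), 0.28 and 0.18 (each with the offset). Kdm6a was at 0.0449 (offset) and 0.0164 (offset with run term). In vector lymphomas against normal B cells, Ezh1 was at -0.10 (library totals), -0.16 (run term), -0.23 (earlier runs), -0.0731 (earlier runs with the offset) and -0.0016 to 0.17 with a library left out. Crebbp was at -0.20 (run term), -0.42 (earlier runs) and -0.13 (earlier runs with the offset). Ep300 was at 0.0381 (offset) and -0.19 to 0.0618 (library left out), Arid1a at -0.23 to 0.0822 and Suz12 at -0.12 to 0.13 (library left out), and Kdm6b at -0.14 and -0.0819 (earlier runs without and with the offset). In Myc lymphomas against normal B cells, Suz12 was at 0.0184 (earlier runs), 0.0624 and 0.0262 (offset with earlier runs or run term), and -0.25 to 0.0166 with a library left out. The cause of these changes was not tested.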
